A study of Ovis aries with 2 samples.

Results

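Loci that only 1 of 2 libraries listed were described in the subcutaneous fat of Iranian native sheep, 1148 of them in the thin-tailed library and 1416 in the fat-tailed one. A row of either table was chosen by position, span and level: it had to share no base with any row of the other table, span 200 bp or more and read 1 FPKM or more. FPKM counts mapped fragments scaled by transcript length and by all the fragments mapped in that library. These loci were 6.03% of the 19037 thin-tailed rows past both minima and 7.18% of the 19716 fat-tailed ones, 2564 loci out of 71438 rows in all. The rule used overlap, span and FPKM, so these are described below without a test. A locus that the other table does not list may still have been transcribed in that library.

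The study set thin-tailed against fat-tailed sheep. Its lambs were untreated, were weaned at 90 days, had the same feed at will for 120 days and were slaughtered at 7 months; poly(A) RNA was sequenced. The tail type is read from the library titles, where the word Fat could also mean the tissue, and the direction of every difference rests on that reading. The design text mentions duplicates; here a single library of each tail type was analysed, so the differences have no replicate check and no p-value is given. The labels do not say how many animals went into a library, nor the breeds, the sex of the lambs or the genome build. Neither table pairs rows with gene names, so markers of fat tissue could not be checked and loci are given by position, with starts counted from 1 and no build named.

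Fat-tailed sheep lay down a large fat depot around the tail, while thin-tailed breeds keep more of their fat in other depots, the subcutaneous one among them. RNA sequencing of such tissue is commonly assembled into loci without regard to a gene annotation, so a table of loci holds known genes and stretches outside them. Transcribed stretches outside annotated genes are known in mammals to include long noncoding RNAs, extended first and last exons of neighbouring genes, and copies of mobile elements. An assembler lists a locus only when enough fragments fall on it, so a thinly covered stretch can be listed in 1 library and missed in another.

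None of the 2564 loci carried an Ensembl identifier, and few rows past both minima did: 1031 of 19037 thin-tailed and 1125 of 19716 fat-tailed ones. All 2564 had a running name of their own table, and rows named so are called assembled here. Rows with an identifier could be listed at 0 FPKM in both libraries, and the rule counted such rows too. A locus could also carry an identifier in 1 table and a running name in the other. A running name therefore does not place a locus outside known genes. The 2564 loci were short and low. In the thin-tailed library the median span was 860 bp (quartiles 635.5 and 1137), against 4638 bp for all rows past the minima. In the fat-tailed library it was 751.5 bp (556.8 and 1001), against 2538.5 bp. Their median levels were 2.45 FPKM (thin-tailed, quartiles 1.74 and 3.87) and 3.10 FPKM (fat-tailed, 2.20 and 4.84), where all rows past the minima had medians of 6.67 and 7.20 FPKM. At these minima the fat-tailed library's loci were more numerous, shorter and at a higher FPKM, and each of these orders turned under another minimum. Of 10 alternatives to the rule, the fat-tailed loci were more numerous in 9, had the higher median FPKM in 9 and the longer median span in 1. With a minimum span of 1000 bp there were 418 thin-tailed and 356 fat-tailed loci. With a minimum of 5 FPKM the median spans were 425 bp (thin-tailed) and 436 bp (fat-tailed), and the median levels 9.21 and 8.34 FPKM. The full sets held 0.260% of the summed FPKM of thin-tailed and 0.426% of that of fat-tailed rows past the minima.

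The deposited intervals imply that these loci rest on little coverage. If an interval came from counting alone, its half-width would be 2 square roots of the fragments behind the value, and this gives each row an implied number of fragments. For 562 of 1148 thin-tailed and 684 of 1416 fat-tailed loci that number lay within 0.02 of a whole number, and for the rest it did not. It is thus a reading of the interval and no deposited count, also where only fragments are written below. The median implied number was 14 in both libraries, with upper quartiles of 18.2 and 18.9, against medians of 87.2 and 73.8 for all rows past the minima. The half-width of the deposited interval was 53.5% of the FPKM for the median locus in both, against 21.4% and 23.3%. Of the thin-tailed loci 93.8%, and of the fat-tailed ones 91.2%, had fewer than 31 implied fragments. Rounded to whole fragments, fewer than 10 were implied for 8 and 12 loci, while 455 and 554 had 10 to 12. Of all rows past both minima with fewer than 10, these loci were 1.71% (of 467) and 2.53% (of 475). Of those with 10 to 12 they were 35.3% and 35.5%.

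**Figure D1:**
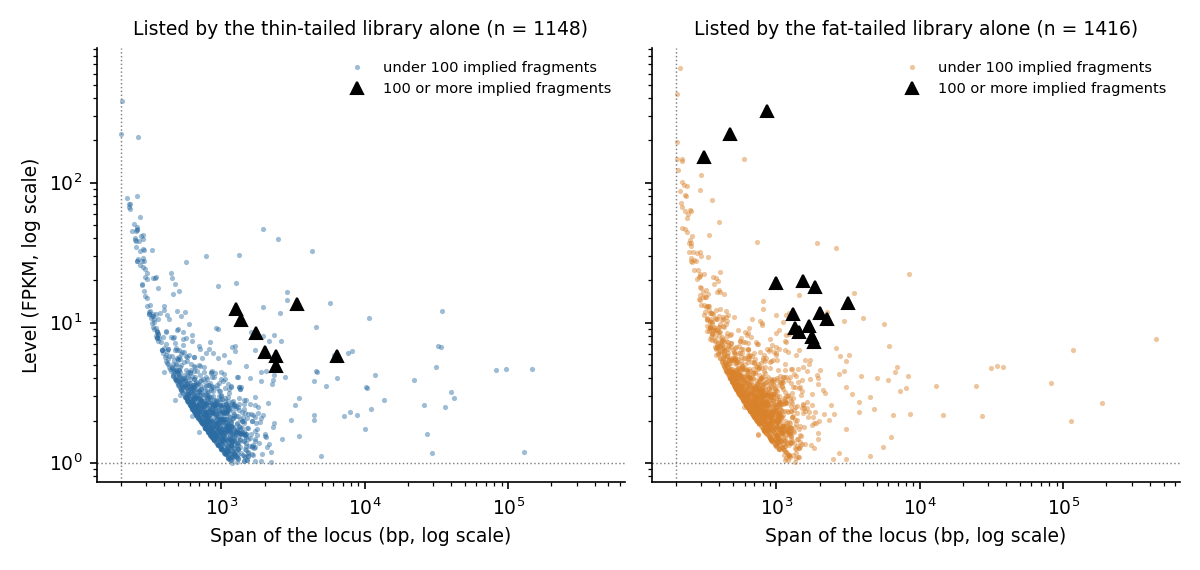
Span (bp, log scale) and level (FPKM, log scale) of each locus listed by the thin-tailed library alone (left, 1148 loci) or the fat-tailed library alone (right, 1416 loci), with dotted lines at the minima of 200 bp and 1 FPKM. Most loci lie along a falling edge where a shorter locus has a higher FPKM; the 8 thin-tailed and 15 fat-tailed loci with 100 or more implied fragments (triangles) lie above it.

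From 10 implied fragments up, the share of rows listed by 1 library alone fell as the number of fragments rose. Below 10 it was low. Among assembled rows shorter than 1500 bp, 40.5% of thin-tailed and 39.8% of fat-tailed rows with 10 to 12 implied fragments overlapped no row of the other table. At 21 to 30 fragments the share was 13.9% in both libraries, and at 31 to 50 it was 5.41% and 5.42%. From 51 fragments the shares rested on few loci. At 51 to under 100 fragments they were 0.77% (4 of 522 thin-tailed rows) and 2.49% (22 of 882 fat-tailed rows). With 100 or more they were 0.28% (2 of 718) and 0.72% (7 of 970).

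The larger number in the fat-tailed library went with a larger number of short, thinly covered rows in its table: 5389 assembled rows were under 1500 bp with 10 to 50 fragments, against 4177 in the thin-tailed table. Both counts of rows include the loci themselves, and the reason for the larger number was not tested. The rows were sorted into 14 classes of span (under 1500 bp, or longer) and implied fragments (from 10 up). If each fat-tailed class had held the thin-tailed share of loci listed alone, the classes under 51 fragments would have given 1360.2 fat-tailed loci, and 1357 were found. The classes of 51 fragments or more would have given 21.1, and 47 were found. The near equality under 51 fragments is a sum of departures in both directions. At 13 to 15 fragments, 284 loci under 1500 bp were found where the thin-tailed share would give 265.7, and 7 longer ones where it would give 23.8. At 31 to 50 fragments, 21 loci of 1500 bp or more were found against 13.04. From 51 fragments all 4 classes held more than the thin-tailed shares would give, on shares that rest on 19 thin-tailed loci.

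**Figure D2:**
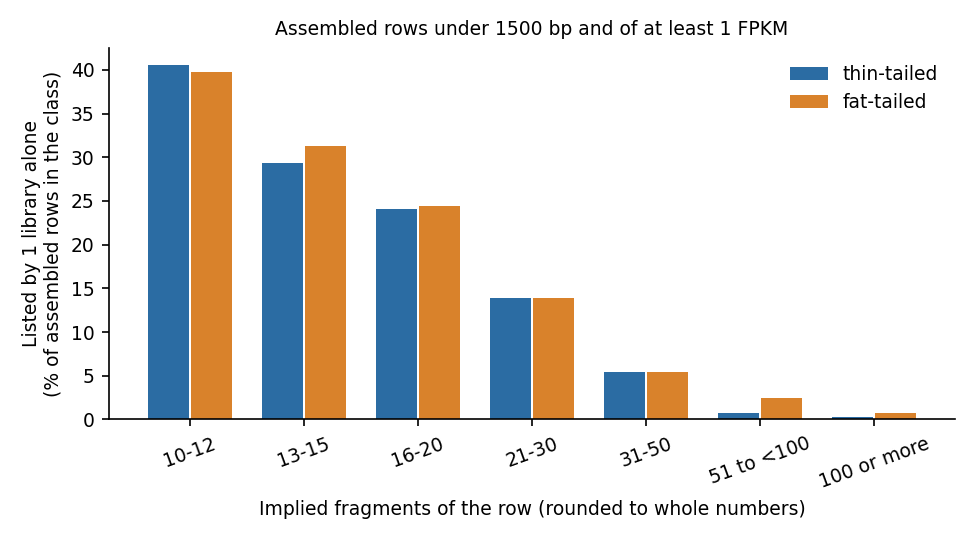
Share of assembled rows under 1500 bp and of at least 1 FPKM that overlapped no row of the other table (vertical axis, %), by class of implied fragments (horizontal axis), for each library. The bars fall from 40.5% and 39.8% in the lowest class shown, 10 to 12 fragments, to 0.28% and 0.72% in the highest. They stay close between the libraries up to 50 fragments. Rows with fewer than 10 are not shown.

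Most loci with a high FPKM were short. At least 10 FPKM was read for 94 thin-tailed and 133 fat-tailed loci, and 66 and 94 of these spanned under 400 bp; only 15 and 18 spanned 1000 bp or more. In loci of 200 to 300 bp the median ratio of FPKM to implied fragments was 2.76 in the thin-tailed library and 2.79 in the fat-tailed one. In loci of 800 to 1000 bp it was 0.150 and 0.156. The median implied fragments were 14 in both libraries in the first class and 13 and 14.7 in the second. The median levels were 38.8 and 40.4 FPKM in the first and 1.94 and 2.30 FPKM in the second.

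FPKM divides by transcript length, so the ratio of implied fragments to FPKM is larger for longer transcripts. It rose with span from a median of 0.36 fragments per FPKM at 200 to 300 bp (both libraries) to 14.6 and 13.4 at 1500 to 2000 bp. The ratio rose more steeply than span did. At 800 to 1000 bp it was 6.67 and 6.42, while the median spans of the 2 classes were 260 and 888 bp (thin-tailed) and 252.5 and 883 bp (fat-tailed). The reason was not tested, and FPKM of loci near 200 bp is high for the fragments behind it. In the longest loci, of 5000 bp or more, the ratio was back at 4.22 over 32 thin-tailed and 4.56 over 26 fat-tailed loci. Loci of 600 to 800 bp had 4.71 and 4.59, close to the ratio of these far longer ones.

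The highest loci of the fat-tailed library stood above those of the thin-tailed library. The highest was on chromosome 20 (25352772 to 25352984, 213 bp) at 663.9 FPKM (deposited interval 518.0 to 809.7), 201 bp from the locus ENSOARG00000015485, which read 2.51 FPKM there and 2.62 in the thin-tailed library. A locus on chromosome 13 (71663098 to 71663299) followed at 427.9 FPKM (282.6 to 573.1), on 34.7 implied fragments. The third, on chromosome 7 (23313925 to 23314785, 861 bp), read 326.9 FPKM (304.3 to 349.5) on 836.7 implied fragments. It began 5 bp past a matched locus (23307594 to 23313919) that read 136.8 FPKM in the thin-tailed library and 54.4 in the fat-tailed one, so a lower neighbour and an extra locus stood side by side there.

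The fourth was the clearest case of a well covered locus far from any other. It lay on chromosome 9 (52248595 to 52249067, 473 bp), read 222.0 FPKM (202.8 to 241.2) on 533.9 implied fragments, and was 39306 bp from the nearest row of either table, a row listed at 0 in both. The fifth, on chromosome 2 (119628416 to 119628618), read 194.2 FPKM on 17.0 implied fragments. The sixth, on chromosome 1 (102649845 to 102650154), read 153.3 FPKM (126.7 to 179.9) on 133.0 fragments, 225 bp from a locus that read 75.1 FPKM in the thin-tailed library and 33.6 in the fat-tailed one. Here too the neighbour was the lower one in the library that listed the extra locus. These cases are no general pattern. Of the 252 nearest matched pairs within 1000 bp of a fat-tailed locus, 45.6% read lower in the fat-tailed library. Over all 13117 matched pairs that reached 1 FPKM in either library it was 56.7%.

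In the thin-tailed library the highest locus lay on chromosome 16 (23403101 to 23403303, 203 bp) at 382.1 FPKM (231.6 to 532.5), on 25.8 implied fragments. The next was on chromosome 9 (60343269 to 60343469) at 223.6 FPKM (104.1 to 343.1), on 14 fragments. The third, on chromosome 2 (130839579 to 130839838, 260 bp), read 210.8 FPKM (162.4 to 259.1) on 76.0 fragments, 55 bp from a locus listed at 0 in both libraries. The other three of the highest 6 read 80.01, 78.2 and 70.8 FPKM on chromosomes 16, 12 and 2, with 29.0, 9.59 and 11.0 implied fragments. None of these 6 reached 100 fragments, while 3 fat-tailed loci of at least 100 FPKM did.

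Loci with 100 or more implied fragments, a limit chosen after the values were seen, numbered 8 in the thin-tailed library and 15 in the fat-tailed one, or 0.09% and 0.17% of rows with that many. In the thin-tailed library the best covered was on chromosome 3 (200220823 to 200224189, 3367 bp) at 13.5 FPKM (12.2 to 14.8) on 437.5 fragments. It stood 448 bp from a longer matched locus that read 1.07 FPKM in the thin-tailed library and 1.89 in the fat-tailed one. On chromosome 24 (25888258 to 25890013) a locus read 8.44 FPKM (6.98 to 9.90), 111 bp from one that read 3.53 and 0.460 FPKM. On chromosome 8 (11423699 to 11424955) a locus read 12.6 FPKM (10.4 to 14.7) on 134.0 fragments, 13748 bp from any row; it was the only thin-tailed one of the 8 over 10000 bp away.

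In the fat-tailed library a locus on chromosome 3 (33369120 to 33372284, 3165 bp) read 13.7 FPKM (12.3 to 15.1) on 396.0 fragments. A row of its own table at 1.45 FPKM was 106 bp away, and the nearest thin-tailed row, at 185.9 FPKM, was 1803 bp away. On X, the locus from 60369685 to 60371545 read 17.8 FPKM (15.7 to 19.96) between rows 146 bp away in the thin-tailed and 181 bp away in the fat-tailed table, at 1.78 and 2.44 FPKM. On chromosome 1 (103176981 to 103178520) a locus read 19.8 FPKM (17.3 to 22.3), 84 bp from a locus at 1.58 FPKM in the thin-tailed library and 0.611 in the fat-tailed one. On chromosome 24 (30495326 to 30496622) one read 11.5 FPKM (9.39 to 13.6) on 120.7 fragments, 116296 bp from any row; with the chromosome 9 locus above it was 1 of 2 over 10000 bp away.

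Of the 8 well covered thin-tailed loci 4, and of the 15 fat-tailed ones 10, had a row of the other table within 1000 bp. Over all loci that shared their sequence with such a row it was 40.6% and 31.1%. A row of their own table stood within 1000 bp of 4 and 12 of them, against 47.6% and 37.3%, and had the lower FPKM in 3 and 11 cases. These loci were chosen for many implied fragments, so that order is a description only. Over all loci with a row of their own table within 1000 bp, that row read higher in 62.3% and 55.3%.

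Long loci were rare: 89.3% of thin-tailed and 92.9% of fat-tailed loci spanned under 1500 bp, against 30.9% and 39.0% of all rows past the minima. The longest thin-tailed locus, on chromosome 6 (65298332 to 65444721, 146390 bp), read 4.64 FPKM (2.16 to 7.11) on 14 implied fragments. On chromosome 10, that from 65773082 to 65902931 read 1.20 FPKM (0.559 to 1.84), also on 14. The other two of the longest 4, on chromosome 2 (208823577 to 208919855) and chromosome 6 (45496456 to 45578321), read 4.64 and 4.59 FPKM on 11.0 and 9.59 fragments. All 4 were thus as thinly covered as the short ones.

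The longest fat-tailed locus, on chromosome 3 (188803120 to 189244755, 441636 bp), read 7.70 FPKM (5.05 to 10.4) on 33.7 implied fragments. It shared its start with a shorter row of its own table and lay 650 bp from a matched locus, which read 3.68 FPKM in the thin-tailed library and 10.6 in the fat-tailed one. The next 3 lay on chromosomes 15 (24062368 to 24247709), 17 (32187830 to 32305176) and 3 (30024888 to 30137381), at 2.66, 6.41 and 1.99 FPKM on 11.9, 13 and 11.9 fragments.

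Most of the loci lay close to another row without touching it. The gap to the nearest other row of the same table had medians of 1120 bp (thin-tailed loci) and 1833 bp (fat-tailed loci). To the nearest row of the other table it was 1422.5 and 2280.5 bp, with a least gap of 4 bp in both. A row of either table stood within 1000 bp of 49.2% of thin-tailed and 39.6% of fat-tailed loci that shared their sequence with another row, and within 10000 bp of 85.3% and 83.3%. The thin-tailed loci were thus the closer ones; under the demand that no row of the other table lie within 10000 bp the order turned, with medians of 19334 bp and 18847 bp. On their sequence 31 and 26 loci had no other row in either table.

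The gaps within a table are shaped by the rule: most rows have a counterpart in the other table, so a row that overlaps or adjoins another of its own table can seldom be free of the other table's rows. The values for other rows are therefore given as a description only. The median gap within a table was 133 bp for the 4355 other thin-tailed and 216 bp for the 5905 other fat-tailed assembled rows under 1500 bp. Another row of the same table overlapped 4.62% of thin-tailed and 4.31% of fat-tailed loci, against 35.8% and 34.2% of the other assembled rows of any span. Few loci were nearer than 51 bp without touching: 6 thin-tailed and 16 fat-tailed loci had a gap of 1 to 50 bp, and 228 and 142 one of 51 to 200 bp.

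**Figure D3:**
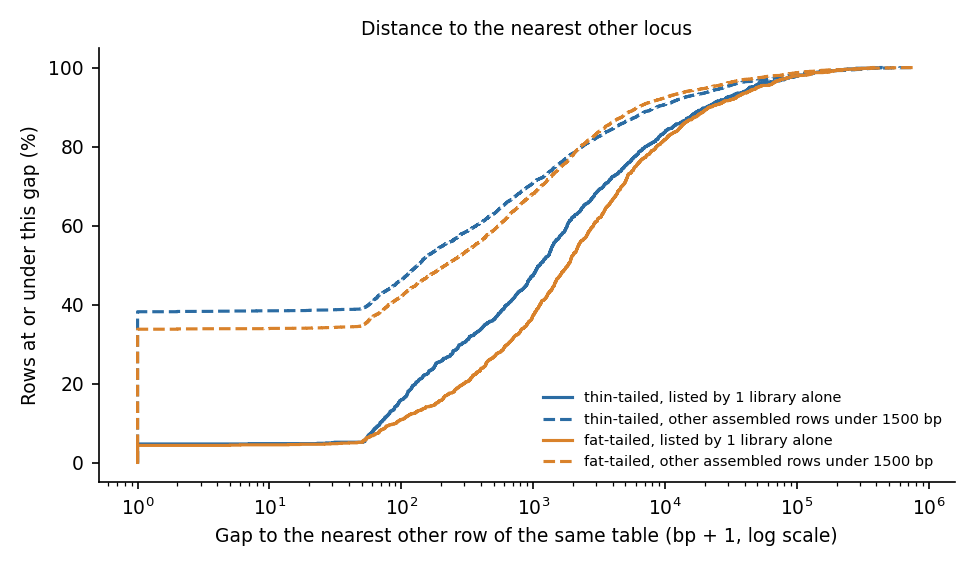
Cumulative share of rows (vertical axis, %) by gap to the nearest other row of the same table (horizontal axis, bp + 1 on a log scale), for loci listed by 1 library alone (solid) and other assembled rows under 1500 bp (dashed). The solid lines start near 5% at a gap of 0, where the dashed lines start above 30%, and their medians are 1120 and 1833 bp; the rule on overlap shapes this difference.

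The nearest row of the same table was mostly one that both libraries listed, though less often than rows in general. It belonged to a matched pair, in which the loci of both tables cover at least 80% of each other, for 69.0% of thin-tailed and 69.2% of fat-tailed loci, while 80.7% and 77.2% of all rows did. It carried an Ensembl identifier for 19.7% and 21.8%, while 41.1% and 41.8% of all rows did. Its median level was 3.57 and 3.76 FPKM, and it read higher than the locus itself in 57.6% and 52.3% of cases. Within 1000 bp it was itself a locus listed by the same library alone in 65 of 531 thin-tailed and 98 of 519 fat-tailed cases. Among all rows, 1148 of 34927 thin-tailed and 1416 of 36511 fat-tailed ones were such loci.

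Loci over 10000 bp from any row numbered 164 in the thin-tailed library and 232 in the fat-tailed one. Their median levels were 2.51 and 3.42 FPKM, their median spans 918 and 663 bp, and their implied fragments 14 in both, so they were covered like those near a row. Over 100000 bp away were 22 and 28. The farthest thin-tailed locus, on chromosome 9 (8732100 to 8732494), read 13.1 FPKM (7.52 to 18.7) and was 434766 bp from any row. The chromosome 16 locus of 80.01 FPKM (49783413 to 49783671), the long chromosome 10 locus and one on chromosome 17 (23299946 to 23300364, 5.19 FPKM) followed at 365798, 280151 and 275978 bp.

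In the fat-tailed library the farthest lay on chromosome 1 (142225439 to 142225712) at 27.8 FPKM (13.3 to 42.2), 380716 bp from any row. A second on chromosome 1 (219182385 to 219182590) read 122.1 FPKM (51.3 to 192.8) on 11.9 implied fragments, at 365191 bp. On chromosome 6 (73436080 to 73436523) a locus read 11.1 FPKM (6.51 to 15.6), at 341672 bp. The fourth, on chromosome 25 (31348946 to 31350368, 1423 bp), read 4.67 FPKM (3.40 to 5.94) on 53.9 fragments, at 305699 bp, and was the best covered of these 4.

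The loci were spread over every numbered chromosome and X, and none lay on the mitochondrial sequence. Per 1000 rows past both minima, 60.3 thin-tailed and 71.8 fat-tailed rows were listed alone, and the fat-tailed share was the higher one on 20 of 27 chromosomes. With a minimum span of 1000 bp it was higher on 10. Chromosome 26 differed most, with 8 thin-tailed loci (37.4 per 1000) and 24 fat-tailed ones (103.4 per 1000). Chromosome 11 had 32 and 78 loci, or 31.4 and 72.3 per 1000, and chromosome 21 had 19 and 42, or 38.6 and 81.4 per 1000. Chromosome 18 went furthest the other way, with 43 thin-tailed (86.7 per 1000) and 32 fat-tailed loci (63.5 per 1000).

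The highest shares on a chromosome were 86.7 per 1000 in the thin-tailed library, on chromosome 18, and 113.3 in the fat-tailed library, on chromosome 10. On unplaced sequences the shares were 103.0 and 95.8 per 1000, from 59 loci on 56 sequences and 50 on 48. Per Mb the loci were densest on chromosome 14 in the thin-tailed library, at 0.925, and on chromosome 11 in the fat-tailed library, at 1.25. In the outer 5% at either chromosome end lay 15.98% of thin-tailed loci and 13.2% of fat-tailed ones, against 14.9% and 14.6% of all rows past the minima, so the loci followed the other rows there.

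**Figure D4:**
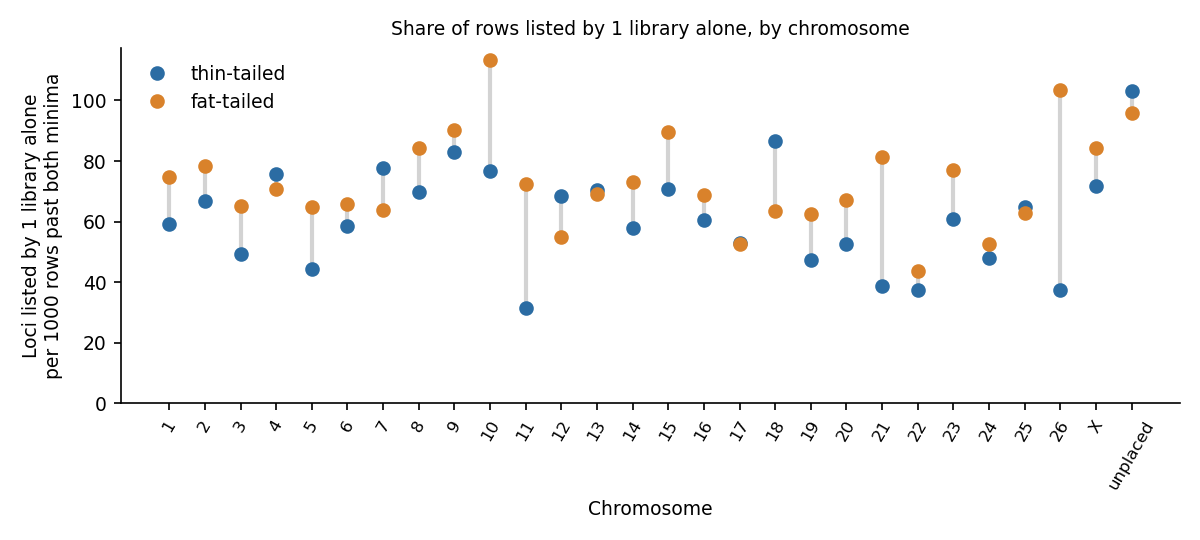
Loci listed by 1 library alone per 1000 rows past both minima (vertical axis), by chromosome (horizontal axis), for each library, with a grey line joining the values. The fat-tailed value is the higher one on 20 of 27 chromosomes, and the longest lines are those of chromosomes 26, 21 and 11, beside that of chromosome 10.

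Most loci stood alone, with rows of either table on both sides. Only 174 thin-tailed and 255 fat-tailed loci formed runs of 2 or more with no other row between them. The longest run had 6 fat-tailed loci within 10578 bp of chromosome 21 (42936227 to 42946804), at 1.27 to 2.61 FPKM with spans of 691 to 2339 bp. A run of 5 fat-tailed loci lay on chromosome 16 (35527308 to 35616955) at 1.09 to 4.70 FPKM, and one of 4 on chromosome 15 (45755797 to 45790497) at 1.83 to 6.89 FPKM. The thin-tailed runs were shorter, with 4 loci each on chromosomes 15 (50076590 to 50084549, 1.66 to 2.94 FPKM) and 9 (75582617 to 75660388, 1.16 to 3.21 FPKM), and 3 on chromosome 22 (33411114 to 33417667).

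Windows of 1 Mb gave a like picture. The fullest fat-tailed windows held 9 loci each, on chromosome 14 (46000001 to 47000000) among 37 rows past the minima and on chromosome 21 (42000001 to 43000000) among 44; the thin-tailed library had 2 and 1 there. The fullest thin-tailed windows held 6 each, on chromosome 14 (57000001 to 58000000) among 25 rows and on chromosome 18 (68000001 to 69000000) among 30, with 2 fat-tailed loci in each. No locus of these 4 windows had more than 29.0 implied fragments. Of 2185 windows with a thin-tailed row past the minima, 755 held a thin-tailed locus. Of 2177 with a fat-tailed row past the minima, 858 held a fat-tailed locus, and 380 windows held both. Within 1000 bp of a fat-tailed locus lay 20 thin-tailed ones, while 452 lay within 1000 bp of any row of the fat-tailed table. Fat-tailed loci were 1416 of the 36511 rows of that table.

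The rule did not use the levels of matched loci beside these loci, and those levels differed by which library listed the extra locus. For matched pairs reaching 1 FPKM in either library, 1 was added to both values and the log2 of fat-tailed over thin-tailed was taken, which makes ratios of low values look smaller than they are. Over all 13117 pairs the median was -0.12, and 8.30% of pairs were 2-fold or more higher in the fat-tailed library, 14.7% lower by as much. The 522 nearest pairs within 5000 bp of a thin-tailed locus had a median of -0.23; 28 of them (5.36%) were 2-fold higher and 100 (19.2%) 2-fold lower. The 564 pairs beside a fat-tailed locus had a median of -0.00123, with 52 (9.22%) higher and 62 (11.0%) lower. Within 5000 bp, pairs beside a thin-tailed locus leaned further towards the thin-tailed library than all pairs did, and those beside a fat-tailed locus less.

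Within 1000 bp the medians were -0.20 over 274 and 0.08 over 252 pairs, and at any distance -0.21 over 964 and -0.07 over 1176. The order-statistic interval of the last, -0.13 to -0.018, held the -0.12 of all pairs. Beside fat-tailed loci, 7.94% of pairs within 1000 bp and 8.25% at any distance were 2-fold higher, against 8.30% of all pairs. The shares 2-fold lower were 10.3% and 13.1%, against 14.7%. With loci of at least 1000 bp only, the medians at any distance were -0.13 over 387 and -0.17 over 332 pairs, with order-statistic intervals of -0.25 to -0.064 and -0.24 to -0.028, so no order can be read there. Loci under 1000 bp were not tried alone. Of the pairs, 157 were the nearest of loci from both libraries. The deposited intervals and fragment numbers cover counting error within a library, and the order-statistic intervals cover the spread over pairs. None of them covers the spread between animals, so they are no test between tail types.

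**Figure D5:**
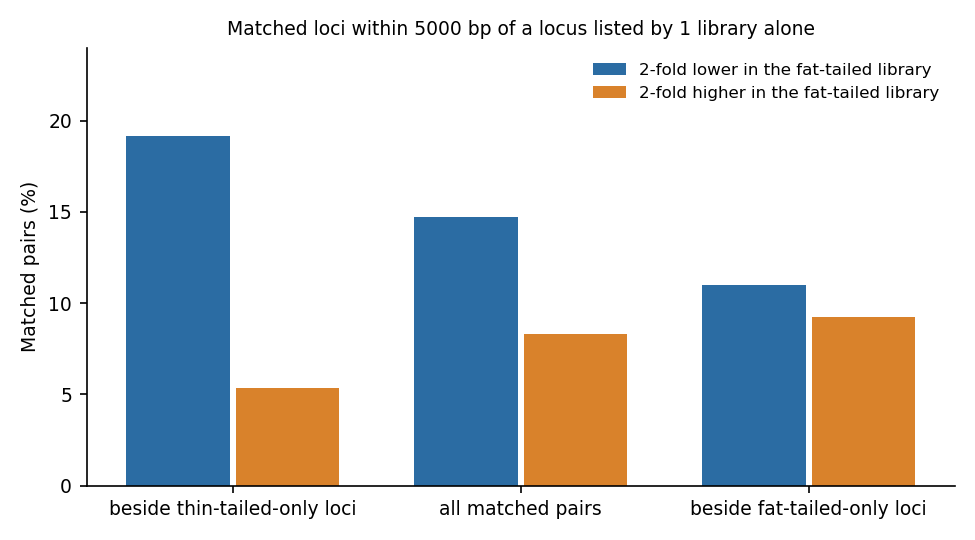
Share of matched pairs (vertical axis, %) at least 2-fold lower or higher in the fat-tailed library, for the 522 pairs within 5000 bp of a thin-tailed-only locus, all 13117 compared pairs, and the 564 pairs within 5000 bp of a fat-tailed-only locus. The share of lower pairs falls from 19.2% through 14.7% to 11.0%, and that of higher pairs goes from 5.36% through 8.30% to 9.22%. Beside fat-tailed-only loci the higher share was 7.94% within 1000 bp and 8.25% at any distance.

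The minima kept out few loci. Of the 1209 thin-tailed rows that overlapped none of the other table, 32 were under 200 bp and 29 under 1 FPKM, and of 1460 fat-tailed rows 39 and 5. The loci just inside the level minimum read 1.00, 1.01 and 1.01 FPKM in the thin-tailed library and 1.00, 1.04 and 1.04 in the fat-tailed one. Just outside were rows at 0.999, 0.994 and 0.991 FPKM, and at 0.924, 0.816 and 0.757. At the span minimum the first inside spanned 201, 203 and 220 bp at 223.6, 382.1 and 78.2 FPKM, and 201, 202 and 203 bp at 148.5, 427.9 and 194.2 FPKM. The first outside spanned 198, 196 and 193 bp at 218.0, 456.5 and 796.7 FPKM in the thin-tailed library, and 199, 192 and 190 bp at 161.2, 182.4 and 9029 FPKM in the fat-tailed library. The last of these, on chromosome 13 (32387589 to 32387778), had 445.9 implied fragments, and the span minimum alone kept it out.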

How the data were processed

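Each of the 2 poly(A) RNA libraries had 1 table of FPKM with a lower and an upper bound per locus, as deposited by the authors. The submitters' processing notes name FastQC, TopHat and Cuffdiff and give neither versions nor an order. Assembly settings, genome build, annotation and scaling across libraries: not given in the sources used here. Total depth is unknown. Deposited starts count from 0 and were raised by 1. Overlap meant 1 bp or more on the same sequence, without strand, which the tables lack. Implied fragments were (2 x FPKM/half-width) squared. Matched pairs were each other's best partner, untied, with at least 80% of both covered. Named loci were the 6 highest, 4 longest and 4 farthest per library, the 3 on either side of each minimum, and the fullest 3 runs and 1 Mb windows; those with 100 or more implied fragments were added after the values were seen. The loci and lists were chosen with earlier results of these data known. The overlap step was tested on a copy of the thin-tailed table with known loci removed. Overlap counts and gaps were also checked against a direct count on rows of both tables. Matching was tested only between copies with the same positions and some levels changed. Computing used Python 3.11.15, pandas 2.3.3 and NumPy 2.4.6.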

Additional observations from a re-analysis of the deposited data

How the results depend on the processing

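No paired analysis was possible because the groups compared share fewer than 2 replicate numbers, and with 1 library per tail type none could be left out in turn. Of 117 values under other settings, 74 stayed within 1.5 times the reported number or, for medians, within the reported median's order-statistic interval. The neighbour medians in this section took pairs at any distance, and none changed sign. By distance the fat-tailed one did, with 0.08 within 1000 bp, -0.00123 within 5000 bp and -0.07 at any distance. Values below are given as thin-tailed and fat-tailed. At a minimum of 2 FPKM there were 739 and 1148 loci, with median spans of 695 and 681 bp and levels of 3.27 and 3.55 FPKM. At 5 FPKM there were 197 and 344 loci, with spans of 425 and 436 bp and levels of 9.21 and 8.34 FPKM, both in the opposite order to the reported ones, and a thin-tailed neighbour median (log2) of -0.30. At a minimum span of 1000 bp there were 418 and 356 loci, with spans of 1261 and 1231 bp, levels of 1.76 and 2.19 FPKM, a fat-tailed distance of 1439 bp, neighbour medians of -0.13 and -0.17, and a higher fat-tailed share on 10 chromosomes. With no row of the other table within 1000 bp, there were 697 and 985 loci and distances were 2960.5 and 3387 bp. With none within 10000 bp there were 237 and 311 loci, at 2.74 and 3.53 FPKM, with a fat-tailed span of 663 bp and distances of 19334 and 18847 bp. With a lower bound of at least 1 FPKM there were 664 and 1020 loci, with spans of 725.5 and 667.5 bp and levels of 3.52 and 3.86 FPKM. Counting only rows of the other table above 0 FPKM gave 1352 and 1581 loci, distances of 598 and 1261 bp and a thin-tailed neighbour median of -0.28. A pseudocount of 5 gave -0.14 for the thin-tailed neighbours, and matching at 50% cover gave -0.15 and -0.014, where all pairs had -0.08 and -0.07. The total depth of either library is unknown, and most loci rest on few implied fragments, so that at this depth a missing row does not show that a locus was silent.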
